A study of Homo sapiens with 2 samples.

Results

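Chromosome 6 carried 835 of the 10342 peaks called in a ChIP-seq assay of brachyury in wild-type MDA-MB-231 cells. The peaks were taken from the deposited list by their chromosome alone, and no measured value entered the choice. MDA-MB-231 is an established human breast cancer cell line, and the study describes brachyury as constitutively overexpressed in it. The cells carried no knockdown and received no treatment named in the labels. The series holds 2 libraries, 1 labelled with the cell line only and 1 labelled as input without antibody, and both came from the same line. Brachyury as the target was taken from the methods of the study, since neither the labels nor the name of the list give it. The first library was read as the immunoprecipitated one since the name of the list sets an immunoprecipitate against an input. The list is the outcome of 1 such call, so no replicate error can be given, and the number of reads behind a peak is unknown. The intervals below cover counting error only, at a confidence of 95%, and treat peaks as independent.

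Brachyury is a T-box transcription factor needed for mesoderm and notochord formation in the embryo, and it binds DNA through its T-box domain. ChIP-seq recovers the DNA fragments bound by a protein and marks places where they pile up above the input as peaks. Chromosome 6 holds a pair of well-known gene clusters on its short arm. The histone cluster supplies most of the replication-dependent histones, the proteins around which DNA is wound and which dividing cells must make anew in each S phase. The major histocompatibility complex (MHC) encodes the HLA molecules that present peptides to T cells, together with complement components and cytokines. The gene of brachyury itself, TBXT, is also listed on chromosome 6 by RefSeq. Positions are those of the list, and the processing notes of the submitters name hg19, also called GRCh37. No annotation of that build was used here, so no gene was assigned to a peak.

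RefSeq (GRCh38.p14, used for names and order only) lists 55 protein-coding histone genes on chromosome 6. They comprise 6 genes of linker histone H1, which binds between nucleosomes, and 12 of H2A, 15 of H2B, 10 of H3 and 12 of H4, which form the core. They stand in 2 runs. The run nearer the tip of the short arm goes from H2AC1 to H4C8 with 34 histone genes, and the other goes from H2BC11 to H2BC17 with 21, with 9 other protein-coding genes in between. A further 38 protein-coding genes follow before HLA-F, the first of the class I genes. The products of the class I genes display peptides from inside the cell. These genes are followed by LTA and TNF, which encode cytokines, and by the complement genes C2, CFB and C4A. The class II genes, whose products display peptides taken up from outside, lie nearest the centromere, from HLA-DRA to HLA-DPB1. The peptide transporter genes TAP1 and TAP2 and the immunoproteasome genes PSMB8 and PSMB9 are set among them.

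In the histone cluster, taken as 26 to 27.9 Mb, only 3 peaks were found. The first, at chr6:26421870-26422794, was 925 bp wide with a score of 65.9. Scores are those of the deposited list and were taken for -10 x log10 p. The lowest score in the list was 50, and this reading was inferred from it. The second, at chr6:26852205-26853257, scored 60.49 over 1053 bp. The third, at chr6:27895004-27895707, scored 56.88 over 704 bp and lay at the very edge of the cluster. All of them were ordinary peaks by score, ranking 243, 375 and 477 among the 835 peaks of the chromosome.

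The cluster lay among long stretches without a peak. The last peak before it, at chr6:25155202-25156178 with a score of 51.63, was followed by 1.27 Mb without any peak, from 25156179 to 26421869. A second such stretch of 1.04 Mb ran inside the cluster from 26853258 to 27895003. These were the second and the sixth longest of the 834 intervals between neighbouring peaks on chromosome 6. Only 9 of the 834 intervals (1.08%) were over 1 Mb, against 329 of 9382 (3.51%) on the other autosomes. The cluster was touched by 2 of the 9. Between 25156179 and 27895003 the list thus held only the peaks that scored 65.9 and 60.49. These long intervals and the low count of peaks are not separate observations.

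The density of peaks in the histone cluster was 1.58 per Mb (exact Poisson interval 0.326 to 4.61), against 4.94 per Mb on the rest of the chromosome. At that density 9.38 peaks would fall in 1.9 Mb. The ratio was 0.320 (exact interval 0.0658 to 0.938), and the difference did not pass the threshold after adjustment over 4 density comparisons (exact two-sided binomial test, p = 0.031, adjusted p = 0.062). The limits of the cluster bore on this value. Shifts of 0.1 Mb were chosen after the data had been seen. With the limits drawn in by 0.1 Mb on each side, the peak at the edge was lost, and the ratio was 0.238 with 2 peaks (exact binomial test, adjusted p = 0.043). With the limits moved out by 0.1 Mb on each side, the ratio was 0.386 with 4 peaks (exact binomial test, adjusted p = 0.11). With the limits moved out by 1 Mb on each side, the ratio was 0.675 with 13 peaks (exact binomial test, adjusted p = 0.40).

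Counts as low as this were common in the list as a whole, which includes long intervals without a peak, the longest 21.8 Mb on chromosome 1. Of 1434 windows of 1.9 Mb over all autosomes, 322 (22.5%) held 3 peaks or fewer, and the median window held 7. On chromosome 6, where peaks were denser, 3 of 88 such windows (3.41%) did, and the median was 9. One of these 3, from 58.90 to 60.80 Mb, held no peak and lay at the centromere. The other two, from 15.20 to 17.10 Mb and from 108.3 to 110.2 Mb, held 3 peaks each.

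**Figure D1:**
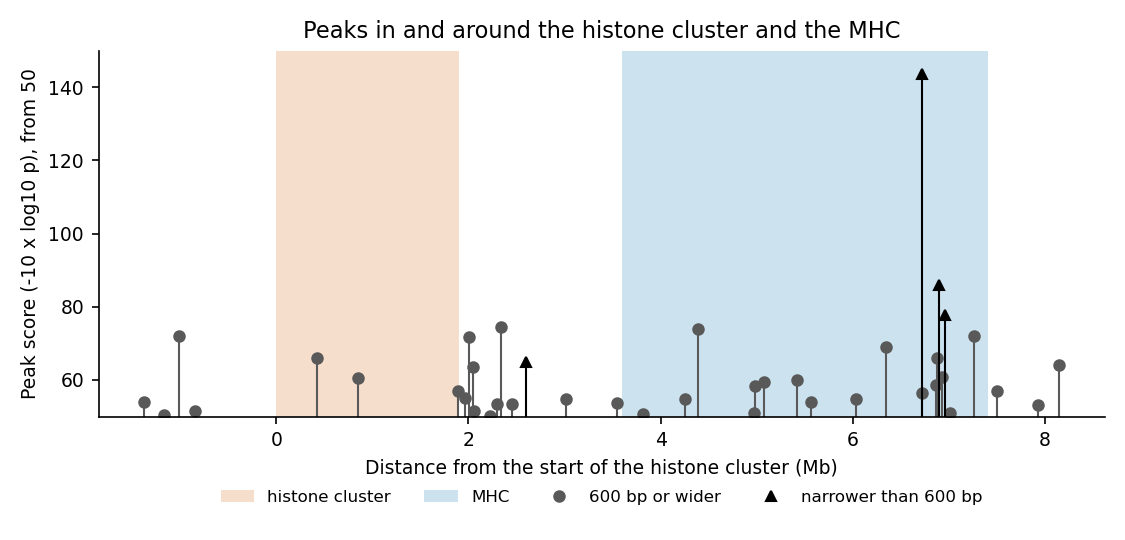
Peaks in and around the histone cluster and the MHC. Each stem is 1 peak, with its distance in Mb from the start of the histone cluster on the x axis. Its score, taken for -10 x log10 p, is on the y axis, which begins at 50. Triangles are peaks narrower than 600 bp. The histone cluster holds 3 peaks, 11 peaks lie between it and the MHC, and the highest stem, at 143.63, stands in the MHC.

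Beyond the edge of the histone cluster the peaks lay closer together than within it. Over the 1.7 Mb between the cluster and the MHC the density was 6.47 per Mb (exact Poisson interval 3.23 to 11.6). The 4.94 per Mb of chromosome 6 outside both clusters lay within that interval. Between the cluster and the MHC 11 peaks were found. The first of them, at chr6:27961655-27962567 with a score of 55.08, stood just outside the limit of the cluster, as the peak of 56.88 stood just inside it. From there 9 peaks followed within 635 kb, up to 28596572. Their scores ran from 50.08 to 74.37 with a median of 55.1. The highest, at chr6:28341323-28342372, was 1050 bp wide, and the next, 71.73 at chr6:28007494-28008472, was 979 bp wide. Only 1 peak of this run was narrower than 600 bp, at chr6:28595983-28596572, with a score of 64.95. The remaining 2 peaks before the MHC were far apart, at chr6:29013725-29014665 with 54.73 and at chr6:29542827-29543766 with 53.59. These peaks were singled out after their values had been seen, and the run was not tested.

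The MHC, taken as 29.6 to 33.4 Mb, held 19 peaks, a density of 5.0 per Mb (exact Poisson interval 3.01 to 7.81). This was close to the 4.90 per Mb of the rest of the chromosome, at which 18.6 peaks would be found. The ratio was 1.02 with an exact interval from 0.611 to 1.60 (exact two-sided binomial test, p = 0.91, adjusted p = 0.91), so that a density from 0.611 to 1.60 times that of the rest was within counting error. Merging peaks less than 1 kb apart turned the ratio to 0.976, and moving the limits out by 1 Mb turned it to 0.840, neither of them past the threshold. Among 43 windows of 3.8 Mb on chromosome 6, 24 held at least 19 peaks, while 201 of 702 windows (28.6%) did so over all autosomes.

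Within the MHC the peaks were spread thinly at first and crowded towards the centromere. The first 10 peaks lay between 29814281 and 32341479. They had scores from 50.6 to 73.98, and none was narrower than 600 bp. The lowest of them was the first, 50.6 at chr6:29814281-29815277, and the highest was 73.98 at chr6:30388706-30389650. A peak of 1366 bp at chr6:30248844-30250209 scored 54.76.

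A pair of neighbours, chr6:30968252-30969118 and chr6:30980767-30981861, scored 51.03 and 58.23. They were followed by chr6:31076773-31077846 with 59.35, chr6:31418885-31419948 with 59.88 and chr6:31558248-31559180 with 53.97. These 5 peaks lay below a score of 60. The next, chr6:32032956-32033787, scored 54.72, and chr6:32340675-32341479 scored 68.99.

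Then 8 peaks followed within 291 kb, from 32715827 to 33006754, with a median score of 63.5. The run was singled out after its positions had been seen, and its crowding was not tested. Whole windows of 1 Mb on chromosome 6 held a median of 5 peaks and up to 13. The window from 32000001 to 33000000 held 9. So did those beginning at 19000001, 50000001, 51000001, 57000001, 64000001, 72000001, 79000001, 81000001 and 159000001. The windows beginning at 63000001 and 68000001 held 13 and 10. The run of 8 peaks opened with the peak at chr6:32715827-32716319, which scored 143.63 and was only 493 bp wide. It was the second highest score on the whole chromosome. Its neighbour, chr6:32716900-32718269, began 580 bp further on and was 1370 bp wide, but scored only 56.57. The next peaks, chr6:32860552-32861504 and chr6:32875723-32876794, scored 58.58 and 66.05. A second narrow peak of 549 bp, chr6:32898869-32899417, scored 86.02.

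The run went on with chr6:32930987-32932276, at 1290 bp and 60.91, and with another narrow peak of 565 bp at chr6:32954349-32954913, which scored 77.79. Its last peak, chr6:33005641-33006754, scored 51.06. Of the 8 peaks in the run, the 3 narrow ones had the highest scores. The last peak of the MHC, chr6:33261135-33262117, stood apart with 71.99, and the first peak outside it, chr6:33494885-33495820, scored 56.91.

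Peaks narrower than 600 bp thus made up 3 of 19 peaks in the MHC (15.8%, Wilson interval 5.52 to 37.6), against 27 of 813 on the rest of the chromosome outside both clusters (3.32%, Wilson interval 2.29 to 4.79). The 2 intervals do not overlap, but the limit of 600 bp was known from earlier results of the list, the share rests on 3 peaks, and it was not tested. The median score of the MHC was 59.4 (exact interval 54.7 to 72), and that of the rest was 58.7 (57.6 to 60). The median width was 983 bp (832 to 1100) in the MHC and 950 bp (936 to 964) on the rest. Each median of the rest lay within the interval of the MHC.

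**Figure D2:**
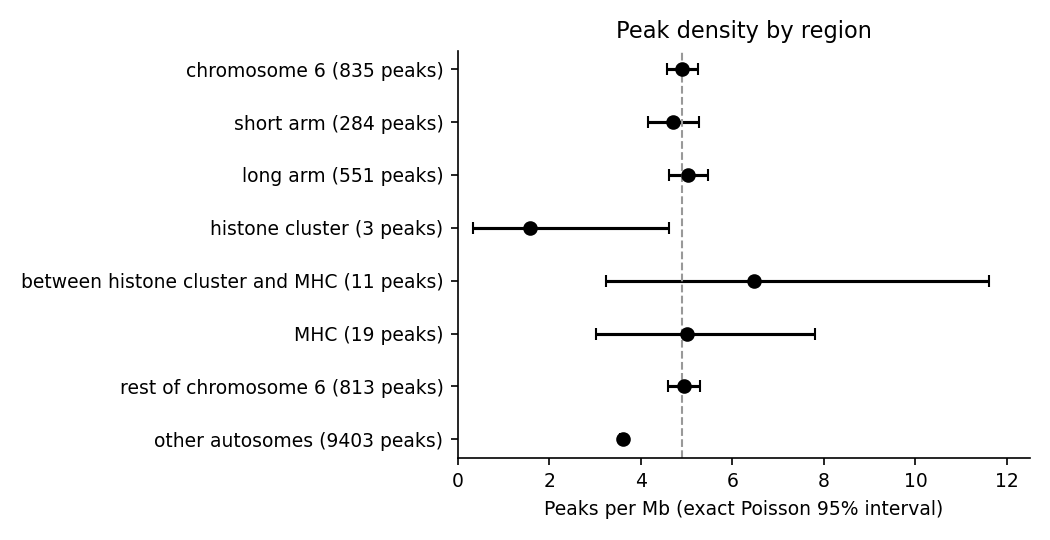
Peak density by region. Points are peaks per Mb and bars are exact Poisson 95% intervals; the dashed line marks the 4.90 peaks per Mb of chromosome 6. The intervals of the MHC and of both arms cross the line, the histone cluster lies below it at 1.58 with its interval ending at 4.61, and the other autosomes lie at 3.61.

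The chromosome as a whole was densely covered. Its 835 peaks lay between 425025 and 170781806, where the last one began, and gave 4.90 peaks per Mb (exact Poisson interval 4.57 to 5.25). The other autosomes had 9403 peaks at 3.61 per Mb. The ratio was 1.36 (exact interval 1.26 to 1.46; exact two-sided binomial test, adjusted p = 1.8e-15). Since peaks on the other autosomes were clustered, the interval was also widened by the variance to mean ratio of their 5 Mb windows, 4.55, a choice made after the data had been seen. It then ran from 1.16 to 1.58 (exact tail with widened counts, adjusted p = 6.2e-04). In windows of 10 Mb the variance to mean ratio of the other autosomes was 7.49, so this widening does not take in all of the clustering. Neither p-value covers the spread between single autosomes, which ran from 1.99 per Mb on chromosome 22 to 5.07 per Mb on chromosome 3. Among the 22 autosomes chromosome 6 ranked 4 by density, within the interval of chromosomes 5 and 13, which both had 4.91 per Mb.

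In score the peaks of chromosome 6 did not stand apart from the list. Their median score was 58.8 (exact interval 57.6 to 60), and that of the other autosomes was 58.7 (58.5 to 59.0). Of 835 peaks, 390 scored 60 or more (46.7%, Wilson interval 43.3 to 50.1), against 45.6% elsewhere on the autosomes. Scores of 100 or more were found in 28 peaks (3.35%, Wilson interval 2.33 to 4.80), against 2.85%.

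The share of wide peaks was lower than in the other autosomes as a whole. Only 19 of 835 peaks (2.28%, Wilson interval 1.46 to 3.53) were at least 1500 bp wide, against 520 of 9403 (5.53%, Wilson interval 5.09 to 6.01). The pooled share was drawn up by a few chromosomes, with 17.1% on chromosome 8, 16.1% on chromosome 5 and 21.7% on chromosome 22. The median over the other 21 autosomes was 2.98%, and chromosome 6 ranked 7 from the lowest. Against single chromosomes its share of wide peaks was therefore ordinary.

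The arms were compared on either side of 61.0 Mb. The short arm carried 284 peaks at 4.69 per Mb (exact Poisson interval 4.16 to 5.27), and the long arm 551 peaks at 5.02 per Mb (4.61 to 5.46). The ratio of short to long arm was 0.934 with an exact interval from 0.807 to 1.08 (exact two-sided binomial test, p = 0.37, adjusted p = 0.49). A difference in density was not detectable at this number of peaks, and ratios from 0.807 to 1.08 are within counting error. The median score was 59.3 (57.1 to 61.0) on the short and 58.6 (57.4 to 60) on the long arm, and the median width was 950 bp on both. Of the 28 peaks with a score of at least 100, 13 lay on the short arm (4.58% of its peaks, Wilson interval 2.69 to 7.67) and 15 on the long arm (2.72%, Wilson interval 1.66 to 4.44).

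Peaks were spread along the chromosome with little clustering. In 33 whole windows of 5 Mb the count was 24.3 ± 5.80 (SD over windows), from 15 to 37, and no window was empty. The variance to mean ratio was 1.38, where 1 is the value of counts that vary by counting error alone. On the other 21 autosomes, each taken alone, this ratio ran from 0.525 on chromosome 15 to 9.05 on chromosome 22, with a median of 2.24. Chromosome 6 ranked 4 from the lowest, and the dense chromosomes 13 and 5 were similar, at 1.49 and 1.56. Empty windows add to this ratio, and chromosomes 1, 8, 9 and 16 had them. Their longest intervals without a peak were 21.8, 8.19, 18.4 and 11.4 Mb. On chromosome 6 the longest, 3.81 Mb, was shorter than a window. Chromosomes 7, 18 and 22 had no empty window, yet their ratios were 5.11, 7.10 and 9.05. In windows of 1 Mb the ratio on chromosome 6 was 1.08, and in windows of 10 Mb it was 1.78, where counts ran from 33 to 66.

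**Figure D3:**
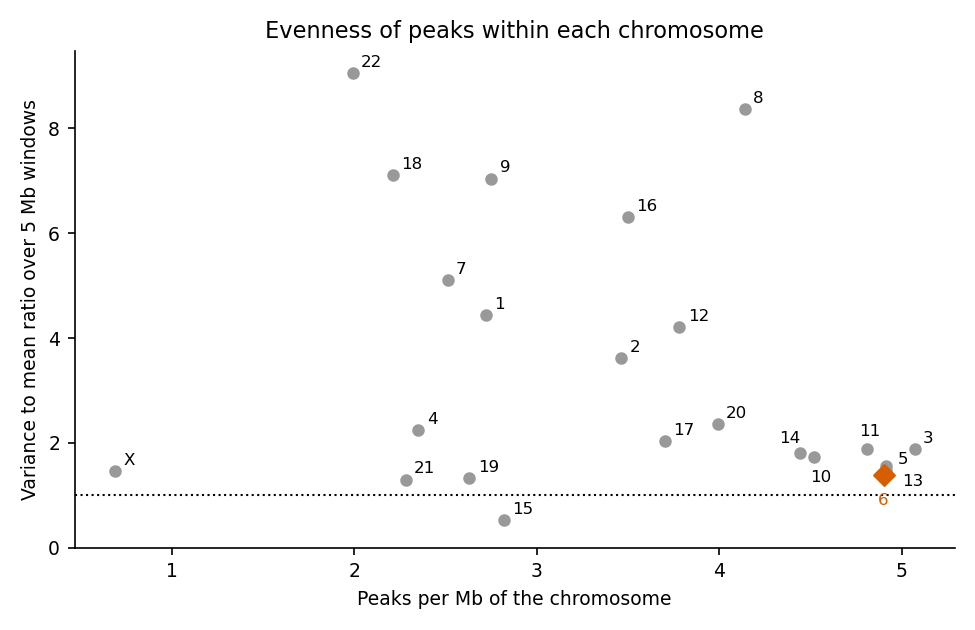
Evenness of peaks within each chromosome. Each point is 1 chromosome, with its peaks per Mb on the x axis and the variance to mean ratio of its counts in whole 5 Mb windows on the y axis; the dotted line marks 1. Chromosome 6, drawn as a diamond at 4.90 peaks per Mb and a ratio of 1.38, lies with chromosomes 5 and 13, while chromosomes 8 and 22 lie above 8.

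Some regional differences remained. The fullest windows, with 37 peaks each, went from 50000001 to 55000000 on the short arm and from 65000001 to 70000000 on the long arm. Windows from 70000001 to 75000000 and from 80000001 to 85000000 held 33 peaks each. The emptiest, from 135000001 to 140000000, held 15. The window from 25000001 to 30000000, which contains the histone cluster, held 16, as did the windows beginning at 90000001 and 160000001. The window from 30000001 to 35000000, which contains most of the MHC, held 26.

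On the long arm the density was highest next to the centromere. In the first 5 Mb there were 37 peaks (7.40 per Mb, exact Poisson interval 5.21 to 10.2), from 5 to 25 Mb there were 127 (6.35 per Mb, 5.29 to 7.56), and from 25 to 50 Mb there were 114 (4.56 per Mb, 3.76 to 5.48). Beyond 50 Mb the remaining 273 peaks gave 4.57 per Mb (4.04 to 5.14). The single fullest window of 1 Mb, from 63000001 to 64000000, held 13 peaks. On the short arm the first 5 Mb held 17 peaks (3.40 per Mb, 1.98 to 5.44). The empty interval across the centromere took up 2.52 Mb of these 5 Mb on the short arm and 1.29 Mb on the long arm. Without it the densities next to the centromere were 6.86 per Mb (3.99 to 11) on the short and 9.97 per Mb (7.02 to 13.7) on the long arm, each the highest value of its arm, though leaving out an empty interval can only raise a density. Further out on the short arm, 99 peaks lay from 5 to 25 Mb (4.95 per Mb, 4.02 to 6.03) and 107 from 25 to 50 Mb (4.28 per Mb, 3.51 to 5.17). Its outermost part, over 50 Mb from the centromere, held 61 (5.77 per Mb, 4.41 to 7.41). These distances were chosen after the counts had been seen, and the differences were not tested.

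The centromere itself was crossed by the longest interval without a peak on the chromosome, 3.81 Mb from 58479521 to 62287488. The last peak before it, chr6:58478448-58479520, scored 50.14, and the first after it, chr6:62287489-62288254, scored 54.66. By score they ranked 826 and 581 among the 835 peaks of the chromosome. The 3 widest peaks of the chromosome were all near this interval. The widest, 2758 bp at chr6:57336233-57338990, scored 109.57, the second, 2015 bp at chr6:57475522-57477536, scored 50.75, and the third, 2001 bp at chr6:63076421-63078421, scored 64.03. They lay 3.66, 3.52 and 2.08 Mb from the position of the centromere. The following 2 in width were on the long arm, 1995 bp at chr6:154207519-154209513 with a score of 51.5 and 1894 bp at chr6:69662092-69663985 with 99.03.

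**Figure D4:**
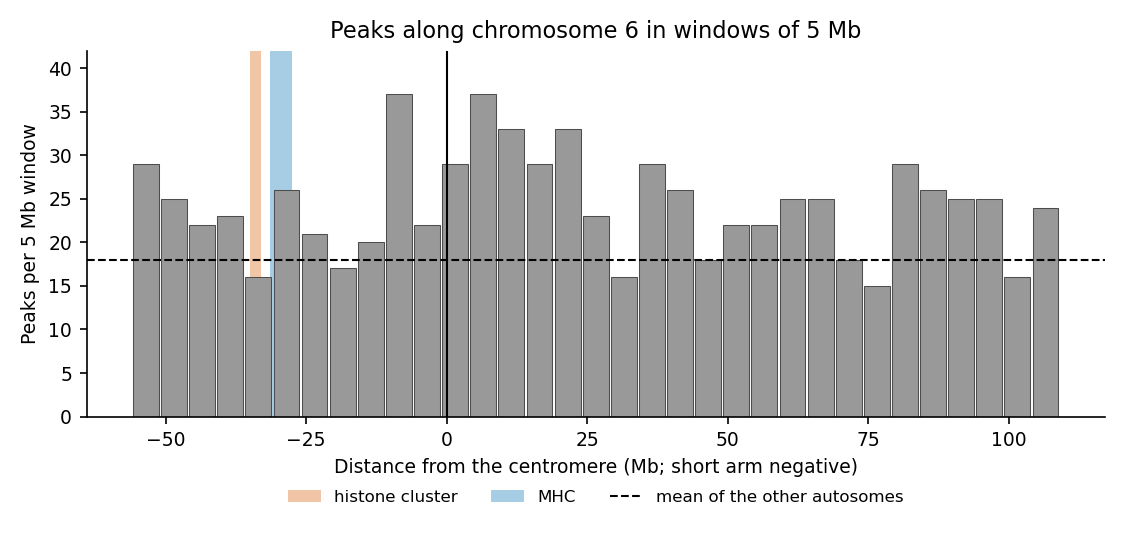
Peaks along chromosome 6. Bars are peaks in whole windows of 5 Mb, placed by the distance of their middle from the centromere in Mb, with the short arm on the left; the dashed line is the mean of the other autosomes, 18.0 peaks. Most windows lie above the line, the tallest bars with 37 peaks stand on either side of the centromere, and the window with the histone cluster holds 16.

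Of the 10 highest scores, 5 lay on each arm, while the short arm carried 284 of the 835 peaks and the long arm 551. The highest was 147.85 at chr6:50161382-50162859, 1478 bp wide, in one of the fullest windows. After the narrow peak of the MHC at 143.63 came 133.54 at chr6:121980083-121981545 and 123.63 at chr6:45648298-45649590, with widths of 1463 and 1293 bp. None of the 10 lay in the histone cluster, but it held only 3 of the 835 peaks, so this says nothing about its scores.

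A pair of narrow peaks on different arms had exactly the same score of 121.24. One was 442 bp wide at chr6:10377351-10377792, and the other was 433 bp wide at chr6:83746002-83746434. The remaining 4 were chr6:98043837-98045281 with 119.81, chr6:78892122-78893201 with 115.95, chr6:24117312-24118325 with 114.95 and chr6:161216684-161217136 with 113.92. The last of these was 453 bp wide. The 10 highest peaks thus fell into 4 narrow peaks of 433 to 493 bp and 6 peaks of 1014 to 1478 bp.

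Narrow peaks had high scores on chromosome 6 as elsewhere in the list. For the 30 peaks under 600 bp the median score was 86.1 (exact interval 78.2 to 103), and 11 of them reached 100. The 786 peaks from 600 to under 1500 bp had a median of 58.0 (57.2 to 59.2), and 14 of them reached 100. Narrow peaks had a median of 86.3 on the short arm (13 peaks) and 86.0 on the long arm (17 peaks). On the other autosomes it was 80.8 (77.8 to 85.3; 240 peaks). The narrowest peak of the whole list, 392 bp at chr6:100452054-100452445, lay on chromosome 6 and scored 88.06. Beside it and the pair of 121.24, the 5 narrowest peaks of the chromosome included 435 bp at chr6:73975027-73975461 with 78.17 and 451 bp at chr6:117301757-117302207 with 112.11.

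**Figure D5:**
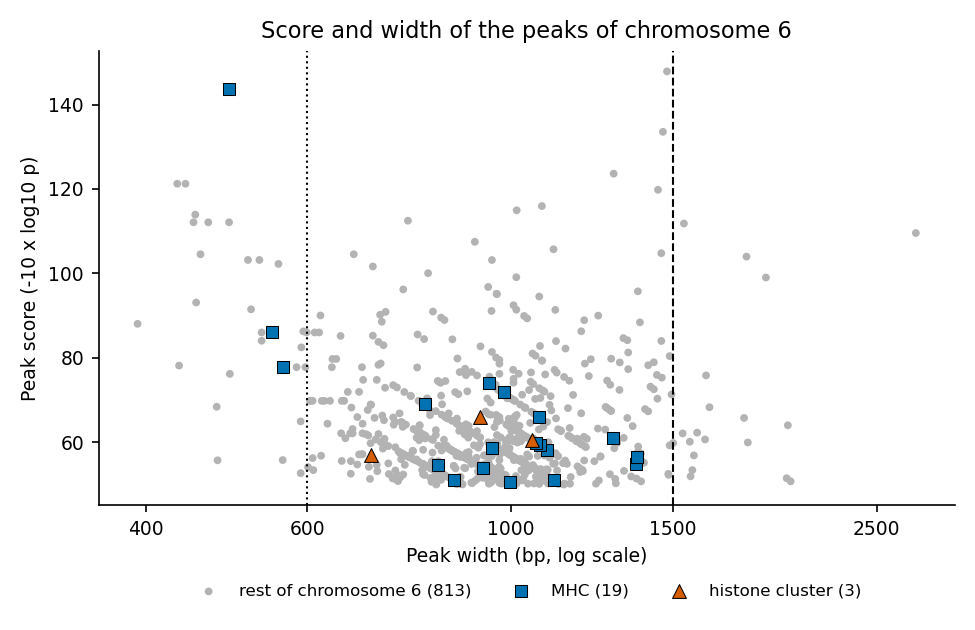
Score and width of the 835 peaks of chromosome 6. The x axis is the width in bp on a log scale and the y axis the score; squares are the 19 peaks of the MHC, triangles the 3 peaks of the histone cluster, and the lines mark 600 and 1500 bp. The 3 narrow peaks of the MHC lie at 77.79, 86.02 and 143.63, and the peaks of the histone cluster lie in the bulk of the chromosome between 56.88 and 65.9.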

How the data were processed

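ChIP-seq of wild-type MDA-MB-231 cells was analysed from 1 deposited peak list. Per the labels, reads were processed with Bowtie2 2.1.0 and hg19, and the authors called peaks with MACS in the immunoprecipitated against the input library. The version of MACS, the handling of duplicate reads and the removal of artefact-prone regions are not given in the sources used here. Each deposited score was taken for -10 x log10 p, since the lowest, 50, equals a limit of 1e-05, and the deposited starts were increased by 1. Depth is unknown.

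A peak belonged to a region by its midpoint. Chromosome length was the span from first to last peak. Densities were compared by exact two-sided binomial tests with Benjamini-Hochberg adjustment over 4 comparisons (threshold 0.05), and the widened interval divided both counts by the variance to mean ratio. Named peaks were those of both clusters, the 10 highest, the 5 widest and narrowest, the outermost, and those beside the centromere. Members and lists were chosen with earlier results of these data known. Genes at peaks and the T-box half-site in peak sequences were not analysed here, for want of a genome in hg19. Python 3.11.15, numpy 2.4.6, scipy 1.17.1, pandas 2.3.3 and matplotlib 3.10.9 were used. Functions were tested on simulated data.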

Additional observations from a re-analysis of the deposited data

How the results depend on the processing

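The higher density of chromosome 6 kept its direction and its side of the threshold under each of the alternatives run, with ratios from 1.29 without empty intervals of over 3 Mb to 1.42 with X and Y in the reference. The arms stayed within counting error under each, with ratios from 0.934 to 0.963. The histone cluster had a ratio below 1 under each, from 0.238 to 0.675. Its difference passed the threshold only with limits narrowed by 0.1 Mb on each side (0.238, exact binomial test, adjusted p = 0.043), a choice made after the data had been seen. In the other alternatives the adjusted p-values of the same test ran from 0.062 to 0.69. The MHC never passed it, and its ratio changed side in merged peaks (0.976) and in the region widened by 1 Mb on each side (0.840), against 1.02. The variance to mean ratio along chromosome 6 was 1.08 in windows of 1 Mb and 1.78 in windows of 10 Mb, against 1.38. Medians of score and width by region stayed within their intervals after merging; the histone cluster, too small for an interval, kept its values. No paired analysis was possible because there is 1 list from 1 pair of libraries. Depth is unknown and replicates are lacking, which limits what any score or position can show.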

Other observations

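Some scores of chromosome 6 recurred exactly. The value 69.82 was shared by 8 of its peaks (85 in the list), all between 604 and 658 bp wide. The value 62.13 was shared by 4 peaks of 653 to 689 bp (67 in the list), 77.79 by 5 peaks of 565 to 688 bp (61 in the list) and 86.02 by 5 peaks of 535 to 618 bp (39 in the list). Of the narrow peaks in the MHC, those at 77.79 and 86.02 carried such recurring values, each with 4 other peaks of the chromosome.

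In 9 of the 834 intervals on chromosome 6 the next peak began less than 1 kb away. On the other autosomes this was so in 60 of 9382, and the difference was not tested. The closest pairs were 104 bp apart, at chr6:81742247-81743109 and chr6:81743214-81743961 with scores of 51.25 and 53.33, and 105 bp apart, at chr6:88618086-88619009 and chr6:88619115-88619926 with 54.47 and 54.20. Both pairs lay on the long arm and were picked out after their values had been seen. Of the 9 pairs, 6 lay on the long arm, 1 in the MHC and 2 on the rest of the short arm. The long arm held 551 of the 835 peaks and the MHC 19. The median interval between neighbouring peaks was 142 kb on chromosome 6 and 158 kb on the other autosomes, where 329 of 9382 intervals (3.51%) were over 1 Mb.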
